A study of Homo sapiens with 6 samples.

Results

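The 10 genes described here encode exchangeable subunits of the BAF chromatin remodelling complex: ACTL6A, PHF10, DPF2 and SS18 of the progenitor type, ACTL6B, DPF1, DPF3 and SS18L1 of the neuron type, and the ATPases SMARCA4 and SMARCA2. They were chosen by name from the 19974 protein-coding genes on 23 chromosomes. A peak was assigned to a gene when at least 1 bp of it lay inside the gene's GRCh38 interval extended by 10 kb on either side. By this rule the genes held 63 of the 78694 listed H3K27ac peaks and 30 of the 43677 listed CTCF peaks.

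The lists come from chromatin immunoprecipitation and sequencing of neurons. These were obtained from neural progenitors by the BrainPhys protocol of Bardy and colleagues, starting from KOLF2.1J, an established human line of induced pluripotent stem cells. KOLF2.1J is a single clonal line, so all values describe 1 genetic background and 1 kind of culture, without a progenitor sample to compare. There were 2 libraries with a CTCF antibody, 2 with an H3K27ac antibody and 2 input libraries without antibody. Each antibody has 1 list that covers both of its libraries, so no value below has a spread between replicates, no test could be made, and the read depth behind each peak is unknown. The wider study searched for elements that regulate MAPT, the gene of tau.

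BAF complexes use the energy of ATP to move or evict nucleosomes, and each complex contains 1 ATPase, either SMARCA4 (BRG1) or SMARCA2 (BRM). When neural progenitors leave the cell cycle, several subunits are exchanged for paralogs: the actin-related protein ACTL6A (BAF53A) for ACTL6B (BAF53B), the plant homeodomain finger protein PHF10 (BAF45A) for DPF1 (BAF45B) and DPF3 (BAF45C), and SS18 for SS18L1 (CREST). DPF2 (BAF45D) belongs to the same finger family and is widely expressed. The neuronal complex is known for its part in dendrite growth. H3K27ac is an acetylation of histone H3 found at active promoters and enhancers, and CTCF binds DNA at loop anchors and at many promoters.

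The H3K27ac marking of the annotated starts is shown first on the DNA itself. Of the 10 genes, 9 had at least 1 window of 250 bases before to 50 bases after an annotated start in the RefSeq set for GRCh38.p14, with 15 windows in all. The windows below belong to PHF10 and DPF2, of the progenitor type, and to ACTL6B and DPF1, of the neuron type. They are chr6:169724451-169724750 on the minus strand, chr11:65333602-65333901 on the plus strand, chr7:100656399-100656698 on the minus strand and chr19:38229646-38229945 on the minus strand. Each runs 5′ to 3′, and capitals mark bases inside an H3K27ac peak.
PHF10: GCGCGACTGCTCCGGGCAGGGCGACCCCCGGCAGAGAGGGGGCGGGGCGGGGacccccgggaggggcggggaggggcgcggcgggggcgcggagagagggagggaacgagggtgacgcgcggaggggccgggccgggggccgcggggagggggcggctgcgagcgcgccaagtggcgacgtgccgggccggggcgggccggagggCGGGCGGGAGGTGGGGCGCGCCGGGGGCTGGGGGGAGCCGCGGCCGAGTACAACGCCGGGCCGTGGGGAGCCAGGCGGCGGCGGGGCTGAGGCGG
DPF2: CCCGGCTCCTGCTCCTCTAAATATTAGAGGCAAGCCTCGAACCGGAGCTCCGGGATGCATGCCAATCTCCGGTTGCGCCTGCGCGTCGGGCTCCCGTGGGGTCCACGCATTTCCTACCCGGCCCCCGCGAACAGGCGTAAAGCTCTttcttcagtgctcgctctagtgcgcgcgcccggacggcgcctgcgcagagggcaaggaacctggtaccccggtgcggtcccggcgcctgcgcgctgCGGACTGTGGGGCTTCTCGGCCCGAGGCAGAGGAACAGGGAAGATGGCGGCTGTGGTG
ACTL6B: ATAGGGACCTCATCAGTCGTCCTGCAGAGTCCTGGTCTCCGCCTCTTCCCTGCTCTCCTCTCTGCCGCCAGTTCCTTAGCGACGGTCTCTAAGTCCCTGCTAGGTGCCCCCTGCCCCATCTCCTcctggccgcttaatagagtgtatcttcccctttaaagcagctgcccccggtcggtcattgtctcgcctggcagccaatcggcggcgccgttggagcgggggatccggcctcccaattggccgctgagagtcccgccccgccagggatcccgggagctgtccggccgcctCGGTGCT
DPF1: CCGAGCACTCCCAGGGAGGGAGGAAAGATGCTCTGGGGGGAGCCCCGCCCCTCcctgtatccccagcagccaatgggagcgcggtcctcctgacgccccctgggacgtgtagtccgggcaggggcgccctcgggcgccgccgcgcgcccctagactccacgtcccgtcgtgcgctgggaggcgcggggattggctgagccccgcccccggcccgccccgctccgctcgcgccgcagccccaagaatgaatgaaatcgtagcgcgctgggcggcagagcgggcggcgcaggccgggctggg

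In all 4 windows a stretch in lower case, outside any H3K27ac peak, separates the bases under a peak or follows them. The PHF10 window holds 147 bases inside a peak, DPF2 204, ACTL6B 131 and DPF1 53. In PHF10 and DPF2 the capitals resume before the start, whereas in ACTL6B and DPF1 the start lies in the lower-case stretch. PHF10 is among the most GC-rich windows, with 85.3% G and C and 47 CpG dinucleotides. The medians over all 22035 windows of protein-coding genes are 62.3% and 21. The other windows shown have 67.7% (DPF2), 65% (ACTL6B) and 75.3% (DPF1) G and C.

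The progenitor-type genes carried the stronger H3K27ac peaks. The authors' H3K27ac signal value, read here from the layout of the list as the fold enrichment over background at a peak's summit, reached 86.6 in SS18, 50.4 in PHF10, 39.9 in ACTL6A and 26.1 in DPF2. In the neuron-type genes the strongest peaks reached 49.8 in SS18L1, 13.2 in DPF1, 9.58 in DPF3 and 6.0 in ACTL6B. The classes overlapped only through SS18L1, which lay above DPF2 and ACTL6A and just under PHF10. SMARCA4 had 32.4, within the progenitor-type range, and SMARCA2 had 18.3, below all 4 progenitor-type genes.

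**Figure D1:**
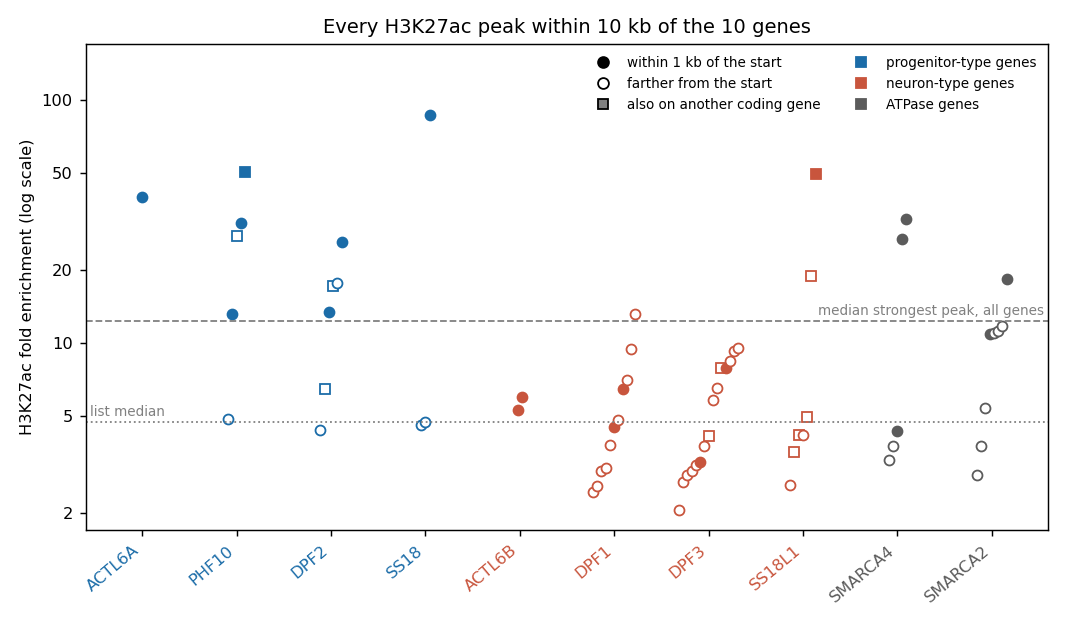
Fold enrichment of each H3K27ac peak (log axis) for the 10 genes; filled symbols lie within 1 kb of the outermost annotated start, squares also overlap another protein-coding gene, and lines mark the list median of 4.74 and the all-gene median strongest peak of 12.3. The strongest peaks of the 4 progenitor-type genes lie at 26.1 or above, and those of ACTL6B, DPF1 and DPF3 at 13.2 or below.

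The median strongest peak was 45.1 for the progenitor-type genes, 11.4 for the neuron-type genes and 25.4 for the ATPases. Over all protein-coding genes, counting those without a peak as 0, it was 12.3. Each of the 10 genes had at least 1 H3K27ac peak, as did 77.1% of all protein-coding genes. The strongest peak exceeded the all-gene median in 4 of 4 progenitor-type genes, 2 of 4 neuron-type genes and both ATPases, against 50% of all genes by construction. The progenitor-type genes stood at percentiles 78.0 (DPF2), 91.2 (ACTL6A), 96.1 (PHF10) and 99.9 (SS18) of all genes. ACTL6B stood at percentile 32.7, DPF3 at 42.6, DPF1 at 52.4 and SS18L1 at 95.9. These positions describe 1 list and are not a test of the classes.

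**Figure D2:**
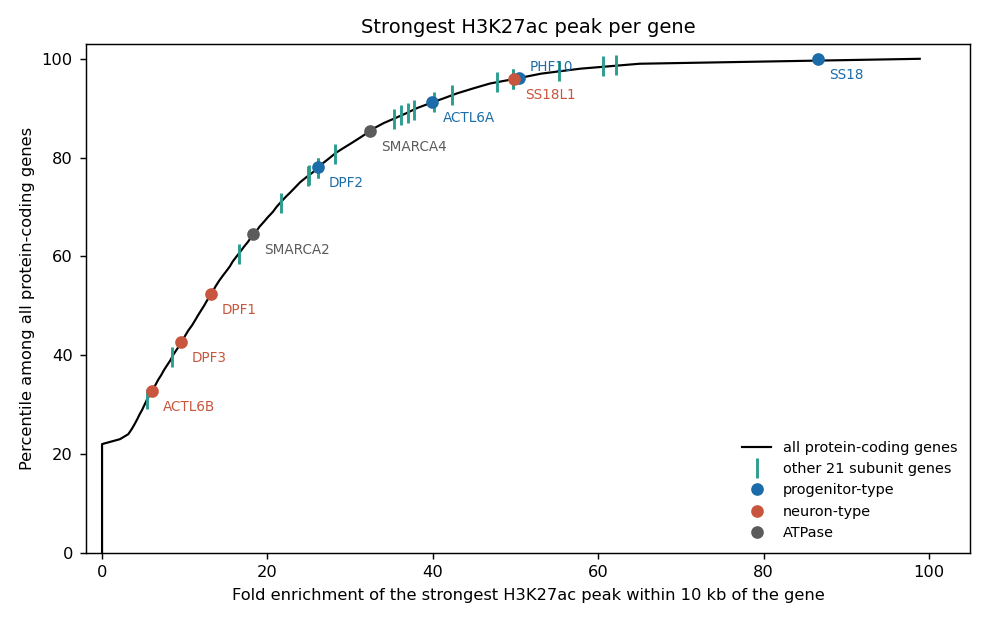
Percentile among all protein-coding genes (vertical) against the fold enrichment of the strongest H3K27ac peak within 10 kb of the gene (horizontal); the line is all genes, points are the 10 genes and ticks the other 21 subunit genes. ACTL6B, DPF3 and DPF1 lie between percentiles 32.7 and 52.4, and the progenitor-type genes between 78.0 and 99.9.

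Some of these peaks also touch a neighbouring gene. The SS18L1 peak of 49.8 overlaps PSMA7, a proteasome subunit gene whose interval lies 375 bp from that of SS18L1, and the list cannot divide it between them. Without peaks that overlap another protein-coding gene, the strongest left in SS18L1 had a fold enrichment of 4.19, and the neuron-type median was 7.79. The PHF10 peak of 50.4 reaches into DYNLT2, whose annotated start lies outside it. The next strongest PHF10 peak, at 31.1, overlaps PHF10 alone, and the progenitor-type median was then 35.5. Under this restriction, which takes away the peak over the SS18L1 start itself, the classes no longer overlapped, with 26.1 as the lowest progenitor-type value and 13.2 as the highest neuron-type value.

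ACTL6A had a single H3K27ac peak, chr3:179562912-179563846, with 39.9-fold enrichment (−log10 q of 158). It begins 14 bases before the lower-coordinate end of the gene, taken here as the start because ACTL6A is transcribed toward higher coordinates. No other H3K27ac peak lay in its window of 45.5 kb. Its paralog ACTL6B had a pair of small peaks on either side of its start. The downstream one, chr7:100655959-100656405, had a fold enrichment of 6.0 (−log10 q of 7.41). The upstream one, chr7:100656575-100656728, had 5.32 (−log10 q of 5.17). Both are above the list median of 4.74, yet the strongest value in ACTL6A was 6.65 times that in ACTL6B, and H3K27ac covered 2.06% and 1.80% of their windows. ACTL6B had no H3K27ac peak elsewhere in its gene or within 10 kb. With an extension of 50 kb, which takes in other genes, its strongest peak was 83.96 against 39.9 in ACTL6A, so this order turned.

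Among the finger proteins, PHF10 had 5 H3K27ac peaks. A run of 4 lay within 2 kb of the start, with fold enrichments of 50.4, 31.1, 13.2 and 4.87 from upstream to downstream. The fifth, at 27.5, lay 22.2 kb downstream of the start, past the gene's end, on WDR27 and C6orf120. DPF2 had 6 peaks: 13.4 just upstream of its start, 26.1 and 4.39 downstream of it, and 17.7, 17.2 and 6.49 around the far end of the gene, where TIGD3 lies 489 bp away. In PHF10 and DPF2 the strongest peak therefore sat at the start.

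DPF1 and DPF3 had more peaks, weaker and spread along the gene. DPF1 had 11, of which 8 lay over 2 kb from the start. Its strongest, chr19:38209153-38211623, had a fold enrichment of 13.2, was 2471 bp wide and straddled the far end of the gene, 18.7 kb from the start. The peaks within 2 kb of the start reached 7.04. DPF3, the longest of the genes at 285 kb, had 15 peaks, 12 of them over 2 kb from the start. The strongest, chr14:72709504-72711072, had a fold enrichment of 9.58 and a summit 184 kb into the gene. Next to it, summits 192 and 194 kb from the start had 8.47 and 9.26. The strongest DPF3 peak at the start had 7.93. Of the 12 distant DPF3 peaks, 6 were 1116 to 1681 bp wide, with fold enrichments of at least 5.83. The list's median width is 356 bp. Compared by their strongest peaks, PHF10 exceeded DPF1 by a factor of 3.82 and DPF3 by 5.26, and DPF2 exceeded them by 1.98 and 2.73. At the start alone (within 1 kb) DPF1 reached 6.50, and the corresponding factors were 7.75 and 6.35 for PHF10 and 4.02 and 3.30 for DPF2.

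**Figure D3:**
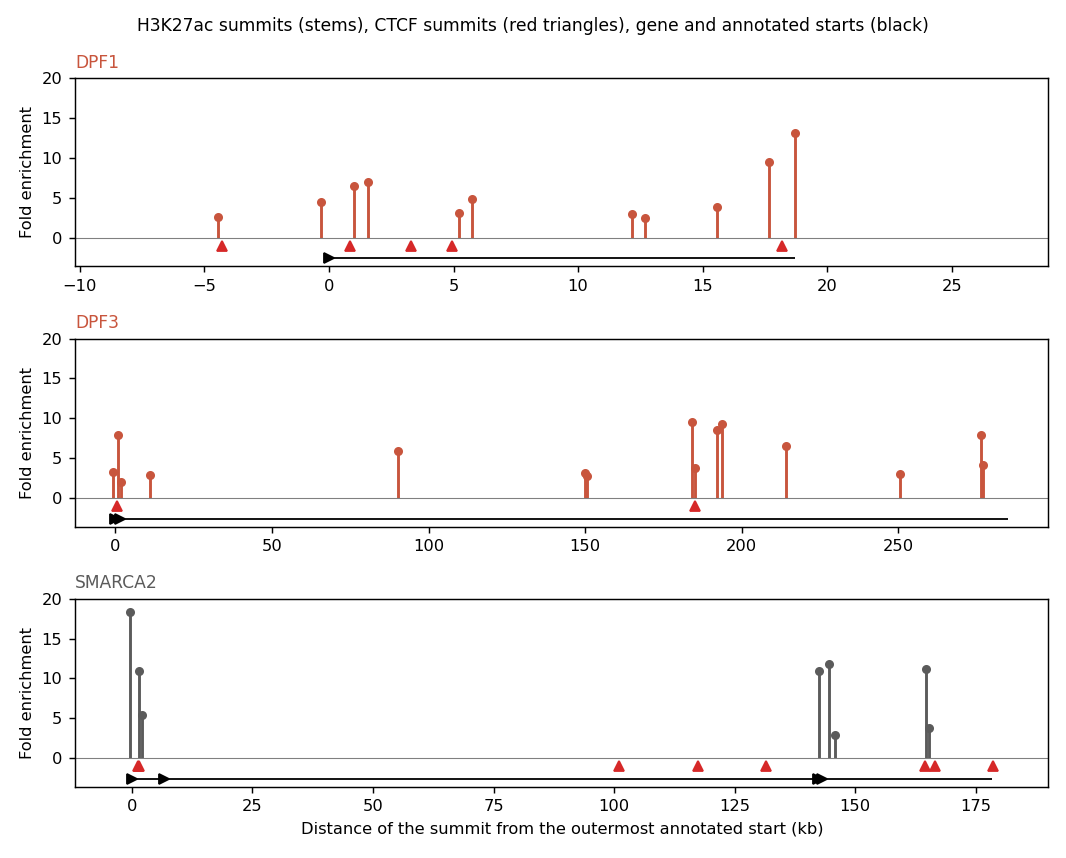
Fold enrichment (vertical) of H3K27ac summits along DPF1, DPF3 and SMARCA2 against distance from the outermost annotated start in kb; red triangles are CTCF summits, black lines the genes and black arrowheads the annotated starts. The highest stems of DPF1 and DPF3 stand 18.7 and 184 kb from the start, and SMARCA2 has further stems near its internal annotated starts.

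SS18 held the strongest peak of the 10 genes. It ran from 26089483 to 26091457 on chromosome 18, 1975 bp wide, with 86.6-fold enrichment (−log10 q of 348), and ranked 13 in the list. It covered both annotated starts of SS18. The other SS18 peaks had fold enrichments of 4.61 and 4.74, near the list median. SS18L1, which encodes a calcium-responsive transactivator, had 7 peaks. Its peak of 49.8, chr20:62142437-62144658, was 2222 bp wide and covered the start. The value in SS18 was 1.74 times as high. A second SS18L1 peak, at 18.8, lay at the far end of the gene and overlapped MTG2, and the other 5 had 2.62 to 4.95.

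The ATPase genes differed in layout. SMARCA4 had 5 peaks, and the strongest were 32.4 just before the start and 26.9 over it. The others had 4.33, 3.32 and 3.79, so H3K27ac in SMARCA4 was concentrated at the start, as in ACTL6A and SS18. SMARCA2 had 8 peaks: 18.3 just before its start, 10.9 and 5.43 after it, and 5 at 143 to 165 kb. Of those distant peaks, 10.96, 11.8 and 11.2 came close to the values at the start, and the remaining values were 2.87 and 3.79. The strongest value in SMARCA4 was 1.77 times that in SMARCA2. This order depends on the window: without the extension the values were 26.9 and 11.8, and with 50 kb they were 32.4 and 43.5, so the direction turned.

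The SMARCA2 peak of 10.96, chr9:2157222-2159284, covered 2 internal annotated starts of the gene in full. These windows have few CpG dinucleotides, whereas the window of the outermost start is CpG-rich. The outermost window, chr9:2015097-2015396, and the first of the internal ones under this peak, chr9:2157412-2157711, both on the plus strand, are printed with CpG in capitals.
SMARCA2 outermost: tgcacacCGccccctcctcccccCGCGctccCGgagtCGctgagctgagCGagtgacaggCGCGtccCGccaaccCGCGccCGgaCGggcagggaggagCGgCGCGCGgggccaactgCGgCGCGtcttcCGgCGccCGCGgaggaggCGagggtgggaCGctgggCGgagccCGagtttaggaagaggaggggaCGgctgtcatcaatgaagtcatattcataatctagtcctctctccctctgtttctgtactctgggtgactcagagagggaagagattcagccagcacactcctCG
SMARCA2 internal: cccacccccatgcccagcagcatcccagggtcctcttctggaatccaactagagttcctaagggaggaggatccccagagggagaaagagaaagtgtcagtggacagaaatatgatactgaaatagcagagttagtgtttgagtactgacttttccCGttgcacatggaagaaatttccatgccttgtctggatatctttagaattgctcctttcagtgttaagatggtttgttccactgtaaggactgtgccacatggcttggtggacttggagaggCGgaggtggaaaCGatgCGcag

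The outermost window has 30 CpG and 66.7% G and C, and the internal one has 4 CpG and 48.7%. The neighbouring internal window under the same peak has 9 CpG. A further SMARCA2 window, with 3 CpG, and the internal SMARCA4 window, with 5, had no H3K27ac peak. Low CpG content was thus found with and without the mark among these windows.

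Each of the 9 genes with annotated windows had an H3K27ac peak on at least 1 of them, against 61.3% of 15813 protein-coding genes. The strongest peak lay within 1 kb of an annotated start in 7 of these 9 genes, against 63.4% of genes with a peak. The exceptions were DPF1 and DPF3. The outermost start itself lay inside an H3K27ac peak in all 4 progenitor-type genes, both ATPases and SS18L1, which is 7 of 10. Of all genes, 42.1% had it so. In ACTL6B, DPF1 and DPF3 the start fell into a gap of 169, 693 and 672 bp between peaks. The call turns on short distances: the peak reached only 2 bases before the start in SMARCA2 and 8 in DPF2, and it began 43 bases after the start in ACTL6B and 49 in DPF3. In DPF1 the nearest peak ended 198 bases before the start. These calls concern the outermost start. DPF3 has a second annotated start, and all 300 bases of its window lay inside the H3K27ac peak of 7.93.

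**Figure D4:**
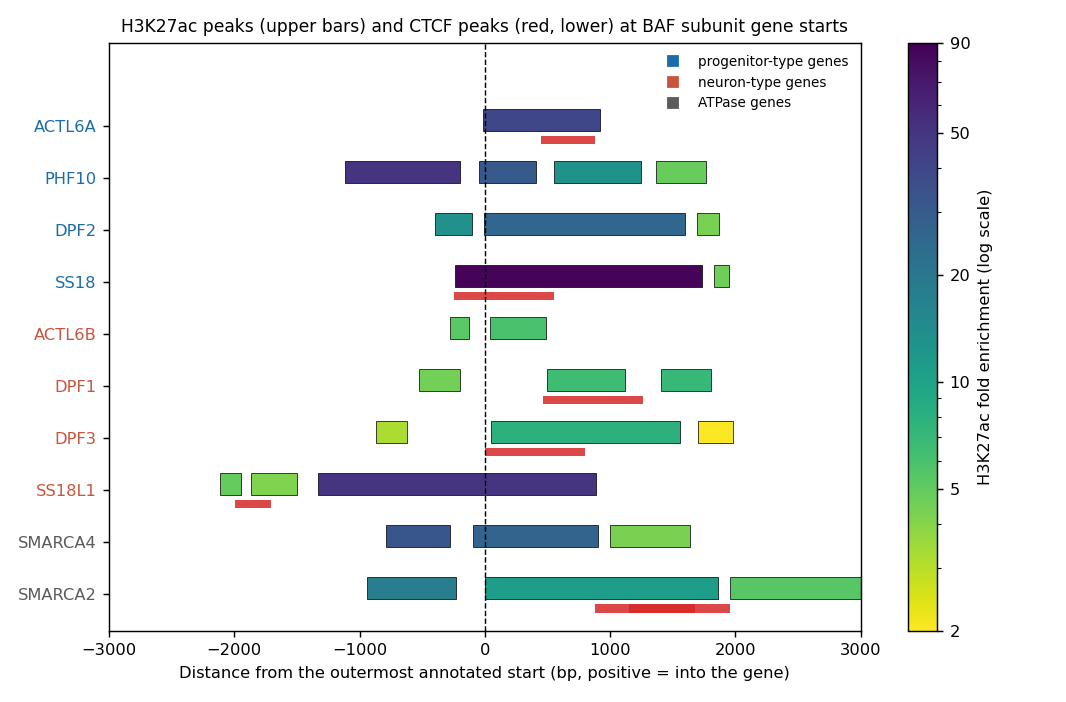
Peaks within 3 kb of the outermost annotated start (horizontal axis in bp, positive into the gene) of each gene; upper bars are H3K27ac peaks coloured by fold enrichment on a log scale, and lower red bars are CTCF peaks. The dashed line at the start crosses an H3K27ac bar in 7 genes and falls between bars in ACTL6B, DPF1 and DPF3.

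A gap between H3K27ac peaks over the start or just before it was present in 7 of the 10 genes. A gap of at most 1 kb placed in the same way, a definition chosen after the gaps had been seen, was found in 26.96% of all protein-coding genes with an annotated start. That share includes genes without H3K27ac at the start: 61.3% had a peak on a start window, against 9 of 9 members with windows. The share among marked starts was not computed. The gap lay over the start in the 3 neuron-type genes named above and, in 4 others, upstream of the start. In these it ended before the start and measured 153 bp in PHF10, 96 bp in DPF2, 179 bp in SMARCA4 and 230 bp in SMARCA2. ACTL6A had no peak upstream of its start. In SS18 and SS18L1 a continuous peak reached 238 and 1332 bases upstream of the start.

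By number, the order of the classes was different from that by strength. The neuron-type genes held 35 H3K27ac peaks in 436 kb of windows, the progenitor-type genes 15 in 221 kb and the ATPases 13 in 320 kb. The median density per gene was 8.96 peaks per 100 kb for the neuron type, 7.74 for the progenitor type and 4.08 for the ATPases, against 3.97 over all genes. Both ATPases (4.12 in SMARCA4 and 4.03 in SMARCA2) lay below every neuron-type gene. Within the neuron type it ran from 4.92 in DPF3 to 28.4 in DPF1, and within the progenitor type from 2.20 in ACTL6A to 14.8 in DPF2. The neuron and progenitor types thus overlapped in density. The median fold enrichment of single peaks was 4.52 in the neuron type and 17.2 in the progenitor type. A q-value above 0.05 was attached to 4 neuron-type peaks, 1 ATPase peak and none of the 15 progenitor-type peaks, against 6.92% of the whole list.

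CTCF peaks were found at all 10 genes, against 75.2% of all protein-coding genes. The neuron-type genes held 15, the ATPases 9 and the progenitor-type genes 6. The median density was 8.11 per 100 kb for the neuron type, 2.47 for the progenitor type and 2.43 for the ATPases, and 2.54 over all genes. SS18L1 (6 peaks) and DPF1 (5) accounted for most of the neuron-type peaks, while ACTL6B and DPF3 had 2 each. The neuron-type number depends on the neighbours: without peaks that overlap another protein-coding gene it was 9, and without the 10 kb extension it was also 9.

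**Figure D5:**
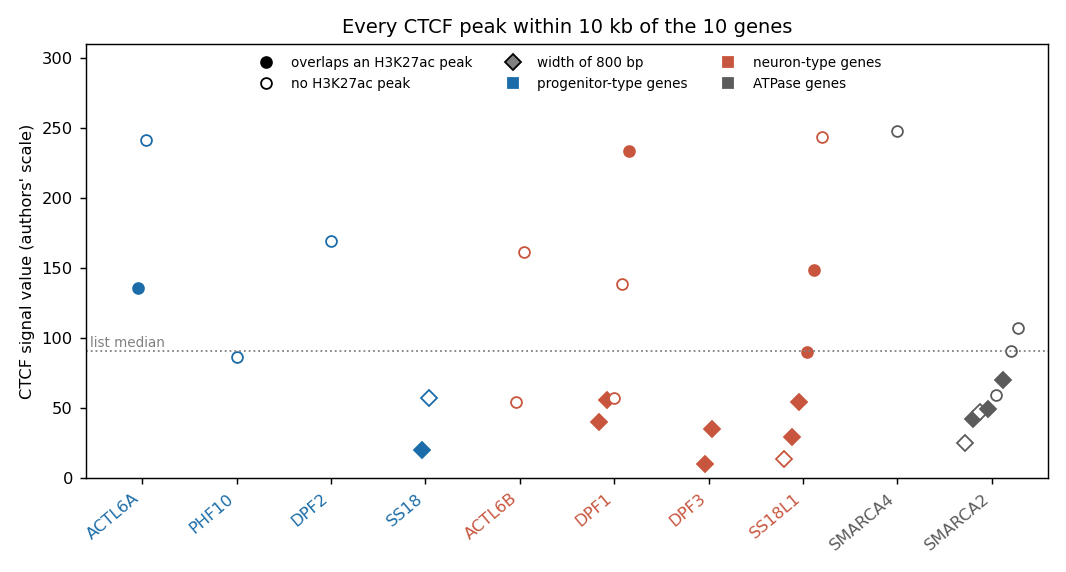
Signal value of each CTCF peak, on the authors' scale, for the 10 genes; filled symbols overlap an H3K27ac peak and diamonds have the list's recurrent width of 800 bp. SMARCA4, SS18L1, ACTL6A and DPF1 have a peak above 230, SMARCA2 has 8 peaks of at most 107, and DPF3 has none above 34.8.

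The strongest CTCF peaks had signal values of 248 in SMARCA4, 243 in SS18L1, 241 in ACTL6A and 234 in DPF1, on the authors' scale, whose list median is 91.0. None of these 4 peaks lay at the start of its gene. That of SMARCA4, chr19:11035874-11036339, was its only CTCF peak and lay 75.1 kb into the gene. Those of ACTL6A (chr3:179558730-179559195), DPF1 (chr19:38233759-38234217) and SS18L1 (chr20:62136774-62137239) lay upstream, at −3.96, −4.29 and −6.75 kb from the start. DPF2 likewise had its only CTCF peak, with a signal value of 170, upstream at −3.77 kb. Of these upstream peaks, that of SS18L1 overlaps PSMA7. PHF10 had a single peak of 86.3 at 27.2 kb, on WDR27. The ACTL6B peaks, 161 and 54.2, lay beyond the far end of the gene on TFR2. The strongest SS18 peak, 57.0, lay 73.1 kb into the gene, and that of DPF3, 34.8, lay 185 kb into it. The 8 SMARCA2 peaks had signal values from 25.1 to 107, and 5 of them had the recurrent width. Of these, the peaks of 42.3 and 70.3 overlap each other, on the same H3K27ac peak. With overlapping entries merged, the ATPases held 8 CTCF peaks instead of 9. Over the 10 genes, 13 instead of 14 then lay on H3K27ac.

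H3K27ac was found on 14 of the 30 CTCF peaks (46.7%), against 28.1% of the whole list, which is not limited to peaks near genes. Assigned by the same rule to every protein-coding gene, which is the closer comparison, 15416 of 40951 CTCF peaks overlapped H3K27ac, a peak being counted once per gene. At the 10 genes, 11 CTCF peaks had their summit inside an H3K27ac peak. The 14 comprised 2 of 6 at the progenitor-type genes, 9 of 15 at the neuron-type genes and 3 of 9 at the ATPases. By gene, 6 of 10 had such a peak, against 44.6% of all genes. The 14 peaks had a median signal value of 51.9, and the other 16 had 88.6. The recurrent width of 800 bp, whose peaks at these genes had signal values of 9.86 to 70.3, was found in 10 of the 14 and 4 of the 16, and in 33.4% of the whole list. ACTL6A combined a CTCF peak of 136 with its only H3K27ac peak, 0.663 kb into the gene. The further overlaps with CTCF signal above the list median were DPF1 (234, on an H3K27ac peak of 2.58 whose q-value is above 0.05) and SS18L1 (149, on an H3K27ac peak of 4.19). The weakest were SS18 (20.3) and DPF3 (9.86). The −log10 q of these was 1.11 and 0.0241, which are q-values above 0.05.

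A CTCF peak touched an annotated window in 2 of the 9 genes, SS18 and DPF3, against 24.6% of protein-coding genes. A core of the CTCF motif (CC, any 3 bases, AGG, any base, then GGC) was searched on both strands. It occurs in 5.51% of all 22035 windows and in 2 of the 15 windows here: the internal window of SMARCA4, which has no CTCF peak, and the second window of SS18. The latter, chr18:26090564-26090863 on the minus strand, is shown with the match in capitals.
SS18 second window: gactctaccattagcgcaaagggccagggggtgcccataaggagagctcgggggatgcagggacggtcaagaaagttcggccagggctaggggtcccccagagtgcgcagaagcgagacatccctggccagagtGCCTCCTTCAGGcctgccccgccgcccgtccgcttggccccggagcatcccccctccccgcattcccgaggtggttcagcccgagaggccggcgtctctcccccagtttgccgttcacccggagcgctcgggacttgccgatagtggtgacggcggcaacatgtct

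The SS18 match lies at 26090718 to 26090729, on the plus strand, inside the weak CTCF peak (26090666 to 26091465) and 343 bp from its summit. The letters of the RE1 element bound by REST, a repressor of neuronal genes, were searched on both strands as a left part, TTCAGCACC, and a right part, GGACAG followed by CGCC. They were found in none of the 15 windows, and in 0.354% and 0.304% of all windows. The GC box GGGCGG was found in 9 of the 15 windows and in 56.3% of all windows. PHF10 had 7 matches, overlapping ones counted, and DPF2 had none.

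The other subunits of BAF, PBAF and ncBAF complexes were taken as a list of 21 genes. All 21 had an H3K27ac peak within 10 kb, as did 77.1% of all protein-coding genes. The strongest peak exceeded the all-gene median in 19 of 21, against 50% by construction. Its median was 36.1, between the values of the progenitor-type genes (45.1) and the neuron-type genes (11.4). The highest were ACTB (62.2), the beta-actin that sits in the complex beside ACTL6A or ACTL6B, SMARCE1 (60.6), an HMG-box subunit, and BCL7B (55.3). The lowest were BRD7 (5.47), a bromodomain subunit of PBAF, BCL11B (8.49), a zinc finger factor of developing neurons, and BCL7A (16.5). CTCF peaks lay at 19 of the 21, against 75.2% of all protein-coding genes, and BCL7B and BRD9 had none.

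The labelled cell type was compared with its markers in the same way. All 7 neuron markers had an H3K27ac peak, as did 77.1% of all protein-coding genes. The strongest fold enrichments of these markers ran from 5.96 to 35.9, with a median of 17.9. All 5 neural progenitor markers (SOX2, PAX6, NES, VIM and HES1) also had a peak, with strongest values from 9.81 to 41.0 and a median of 35.3. Inside the gene itself SOX2 reached 29.3, HES1 9.10 and SNAP25 13.9, against 41.0, 16.8 and 17.9 in the extended windows. The other neuron and progenitor markers had the same value inside the gene. Of the proliferation markers, MKI67 had none and TOP2A reached 6.86. NANOG and AQP4 had none, and the 3 oligodendrocyte markers reached at most 8.0. Of the pluripotency markers POU5F1 reached 7.19, and MOG and POU5F1 had no peak in the gene itself. Of the 3 astrocyte markers SLC1A3 reached 14.3 and GFAP 62.8, the highest of any marker, but inside the GFAP interval the strongest peak had 2.75. Windows thus also hold peaks of neighbouring genes. The part of progenitor cells in the values of the progenitor-type genes was not tested. In these lists, more cells with the mark and more mark per cell cannot be told apart.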

How the data were processed

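The deposited files were 2 peak lists without header, 1 per antibody, each covering both libraries; they held 0 columns of single samples. Per the submitters' processing notes, reads were trimmed with cutadapt 1.16 and the build was hg38. The aligner and peak caller are not given in the sources used here. Filters are known only from the names of the lists. Both are called optimal, and only the CTCF list is also labelled IDR (irreproducible discovery rate). Per the labels, chromatin was fixed with 1% formaldehyde and libraries were amplified by PCR. The deposited CTCF column is a peak signal in a unit the sources do not name. The deposited H3K27ac column was read as a fold enrichment (ratio) from its layout. Both deposited lists give −log10 q and a score of at most 1000, which was not used. Of the CTCF peaks, 68.3% share the highest −log10 q, 4.78.

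Genes and start windows came from RefSeq tables of GRCh38.p14. As a check of positions, 43.4% of 22012 annotated starts lay in an H3K27ac peak, and 2.63 to 2.98% did after shifts of 5, 20 or 100 kb either way. A peak belonged to a gene at 1 bp of overlap with the interval extended by 10 kb. Percentiles are shares of protein-coding genes with a lower value, and peaks with a q above 0.05 were kept. The values to be named were set by a rule: all members, their strongest peaks, peaks at starts, CTCF peaks on H3K27ac, all peaks of genes with 5 or fewer, and the 3 highest and 3 lowest other subunits. The text follows it in part. Not every peak at a start, CTCF peak on H3K27ac or CTCF peak of DPF1 is given singly. The members and lists were chosen with earlier results of these data known. Intervals were handled in Python 3.11.15 with pandas 2.3.3 and numpy 2.4.6, and the interval functions were tested on simulated data. Alternatives were other extensions, stricter lists, summit overlap, merged CTCF entries, the recurrent width and peaks shared with neighbours.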

Additional observations from a re-analysis of the deposited data

How the results depend on the processing

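No paired analysis was possible because each list covers both replicates and holds no values of single replicates, and leaving out a replicate was not run for the same reason. Of 72 alternatives, 50 kept the value and 22 moved it, where a count was kept within 1.5 times and a median only if it was identical. The cause of the moves was not tested beyond what each setting removes or adds.

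With an extension of 50 kb, which brings in neighbouring genes, H3K27ac peaks rose from 15 to 34 at the progenitor-type genes, from 35 to 60 at the neuron-type genes and from 13 to 24 at the ATPases. CTCF peaks then numbered 13 and 23 at the progenitor-type and neuron-type genes, 25 CTCF peaks overlapped H3K27ac, and the neuron-type median strongest peak was 31.5. Without extension, CTCF peaks numbered 3 at the progenitor-type and 9 at the neuron-type genes, and the progenitor-type median strongest peak was 35.5. With each list cut to its upper 50% by value, H3K27ac peaks numbered 17 at the neuron-type genes and 8 at the ATPases. CTCF peaks there numbered 3, 5 and 2 at the progenitor-type, neuron-type and ATPase genes, and 1 overlapped H3K27ac. Without CTCF peaks of the recurrent width, 8 were left at the neuron-type genes and 4 at the ATPases, and 4 over all 10 genes lay on H3K27ac. Without peaks on another protein-coding gene, the median strongest peak was 35.5 (progenitor type) and 7.79 (neuron type), and 9 CTCF peaks were left at the neuron-type genes. The progenitor-type median stayed above the neuron-type median in all 7 alternatives run for both, least so with 50 kb (45.1 and 31.5). This count says little about stability. With 5 kb, summit overlap, the upper 50% or q under 0.01, each gene kept its strongest peak, so both medians stayed at 45.1 and 11.4. Only the extensions of 0 and 50 kb and the removal of peaks on other genes changed a median. Depth is unknown, so a missing peak is not a measured absence.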
